A study of Bos taurus with 2 samples.

Results

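The osteoblast regulators and matrix genes described here were 9 genes, chosen by name for their roles in bone formation, of the 21162 protein-coding genes placed on chromosomes 1 to 29 and X. RUNX2, SP7, DLX5 and DLX6 encode transcription factors, ALPL encodes an enzyme of mineralization, and BGLAP, IBSP, SPP1 and SPARC encode proteins of the bone matrix. CpG methylation had been measured by whole-genome bisulfite sequencing (WGBS) in 2 samples of bone, named Bone_1 and Bone_2. Both were labelled as female Holstein cattle, with no treatment. Age, which bone was taken, whether marrow was removed and whether the samples came from 1 animal or from 2 are not given in the sources used here, so an SD below is the spread between these samples. In WGBS, unmethylated cytosines are converted, and each read over a CpG gives a methylated or an unmethylated call. Bisulfite does not separate 5-methylcytosine from 5-hydroxymethylcytosine.

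Osteoblasts are the cells that lay down bone. RUNX2 commits precursor cells to the osteoblast lineage, SP7 (osterix) acts after it, and DLX5 and DLX6 are paired homeobox genes of skeletal development. ALPL (tissue-nonspecific alkaline phosphatase) removes an inhibitor of mineral growth, and the matrix genes encode osteocalcin (BGLAP), bone sialoprotein (IBSP), osteopontin (SPP1) and osteonectin (SPARC). In mammalian genomes most CpG sites are methylated, while CpG-dense stretches at gene starts are usually not. Bone also holds osteocytes, osteoclasts, blood vessels and marrow cells. In such a mixture, a share of cells with a methylated region and partial methylation within each cell cannot be told apart.

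On chromosomes 1 to 29 and X, Bone_1 had 462047525 calls and a methylation level of 72.3%, and Bone_2 had 406703424 calls and a level of 58.7%. The odds of methylation were 1.84 times as high in Bone_1. A level is the summed methylated calls of a region over all its calls, in percent, with both strands joined into CpG sites. For the start region of a gene, 1000 bp upstream to 500 bp downstream of the annotated start were taken. Strand was inferred from gene order shared with human, and the start is the outermost annotated end. The other end was measured in the same way. Positions are those of CpG sites in the deposited counts, whose processing notes name the ARS-UCD1.2 build.

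The start regions fell into low, intermediate and methylated ones. Those of DLX5 and DLX6 were under 20% in both samples, and that of RUNX2 was under 30% in both. The start regions of SP7, SPP1 and SPARC were intermediate in at least 1 sample, and those of ALPL and BGLAP were over 50% in both samples. The IBSP start was at 57.3% in Bone_2 and had too few calls in Bone_1 to be placed. The median of the 9, with IBSP counted in both samples in spite of its few calls in Bone_1, was 48.7% in Bone_1 and 43.9% in Bone_2. Over 41039 ends of protein-coding genes with at least 20 calls in each sample, for which strand was not known and starts and 3′ ends are therefore mixed, the medians were 70.0% and 51.9%, and 27.6% of the ends were under 20% in both samples.

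**Figure D1:**
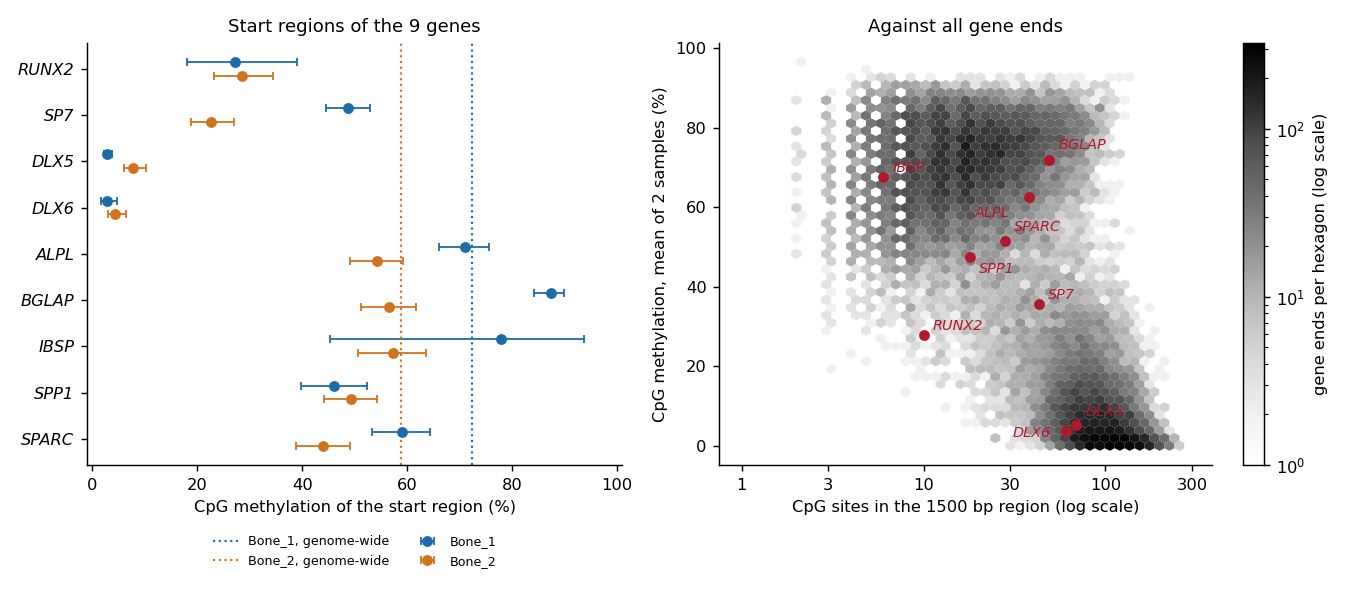
Left, CpG methylation (%) of the start region of each gene in Bone_1 (blue) and Bone_2 (orange), with 95% Wilson intervals as bars and the genome-wide level of each sample as a dotted line. Right, mean level of the 2 samples (%) against the number of CpG sites in the 1500 bp region (log scale) for all gene ends (grey hexagons) and the 9 starts (red). DLX5 and DLX6 sit with the CpG-dense, unmethylated ends, whereas RUNX2, with 10 CpG sites, lies below most ends of its CpG density.

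Each start was therefore read against gene ends with a similar number of CpG sites. Gene ends with 60 or more CpG sites had medians of 4.25% and 7.78%, and 75.5% of them were under 20% in both samples. The DLX5 and DLX6 starts, with 69 and 61 sites, belonged to this class. In it DLX5 stood at percentile 41.1 in Bone_1 and 50.2 in Bone_2, and DLX6 at 41.5 and 37.1. Of 15301 gene ends with under 20 CpG sites, only 0.392% were under 20% in both samples and 1.00% were under 30% in both. RUNX2, IBSP and SPP1 belonged to that class, and RUNX2 was the one of the 3 under 30% in both. SPP1 stood at percentile 4.33 of the class in Bone_1 and 20.4 in Bone_2. Among ends with 40 to 59 sites, SP7 stood at percentile 46.4 in Bone_1 and 33.2 in Bone_2, and BGLAP at 83.2 and 58.3. ALPL stood at percentile 27.5 in Bone_1 and 30.1 in Bone_2 among ends with 20 to 39 sites.

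Because the pooled genome-wide level was lower in Bone_2, regions were compared between the samples against the genome-wide odds ratio. This was a two-sided exact test, with Benjamini-Hochberg adjustment over all gene ends. A call therefore means that a region differed between the libraries by more or by less than the genome as a whole. It does not compare conditions. Bone_2 was not lower in every class of region. At gene ends with 60 or more CpG sites its median was 7.78%, against 4.25% in Bone_1. The summed calls of all gene ends gave an odds ratio of 0.818, so the genome-wide ratio does not describe CpG-dense ends. Calls at neighbouring sites can come from 1 read, so these p-values and the intervals cover counting error only. In all, 48.7% of the gene ends were called. Of the 8 member starts with enough calls, 5 were called, which is near that background and is no result about these genes. SP7 and BGLAP were relatively higher in Bone_1, a direction called at 20.9% of gene ends. DLX5, DLX6 and SPP1 were relatively higher in Bone_2, a direction called at 27.9%. Calls were more frequent at CpG-dense ends, with 67.3% at ends with 60 or more CpG sites, the class of DLX5 and DLX6, and 27.7% at those with under 20, the class of SPP1. These directions depend on the ratio tested. Of all called gene ends, 42.8% were relatively higher in Bone_1, against 78.2% with an odds ratio of 1, where 4 of 5 called member starts were higher in Bone_1 (SP7, ALPL, BGLAP and SPARC) and DLX5 was higher in Bone_2.

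RUNX2 had a low start region in spite of few CpG sites. The 10 sites on chromosome 23 (18593021 to 18594305) had a level of 27.3% in Bone_1 (95% Wilson interval 18.0 to 39.04%, 66 calls) and 28.5% in Bone_2 (23.2 to 34.4%, 246 calls), or 27.9% ± 0.836 (SD, n = 2). The intervals overlapped, although at the genome-wide ratio the Bone_1 level would go with 17.0% in Bone_2. This difference did not pass the exact test (adjusted p = 0.0770). Among gene ends with under 20 CpG sites, the RUNX2 start stood at percentile 1.36 in Bone_1 and 2.07 in Bone_2.

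Within the region, the site farthest upstream, at -785 bp, was methylated in 5 of 8 and 38 of 56 calls. The 8 sites within 500 bp of the start were at 19.6% (56 calls) and 14.6% (158 calls). The 4 sites within 100 bp of the start were at 30.8% in Bone_1 (26 calls) and 4.88% in Bone_2 (41 calls). They lie close enough for 1 read to call several of them, and this gap was not tested. From 1 to 5 kb upstream the levels were mixed. The window 4 to 5 kb upstream was at 27.4% in Bone_2 (281 calls), with 3 calls in Bone_1. The one 1 to 2 kb upstream was at 62.1% in Bone_1 and 51.6% in Bone_2. Beyond 5 kb the pooled levels were higher. In the windows within 1 kb of the start the levels were 26.9% and 26.7%, whereas in those 5 to 10 kb away they were 84.2% and 67.9%. The difference was 57.4 and 41.2 percentage points, against medians of 4.75 and 4.95 over all gene ends and upper quartiles of 57.5 and 41.1. With the region extended to 2000 bp upstream, the RUNX2 level was 44.0% (mean of 2 samples). Only the sites at 480 and 499 bp past the start were read at least 10 times in both samples. Their level was 14.6% (mean of 2 samples), which does not cover the sites next to or upstream of the start.

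The SP7 start changed from unmethylated to methylated within its 1500 bp. Its 43 sites on chromosome 5 (26685653 to 26686976) were at 48.7% in Bone_1 (44.6 to 52.9%, 552 calls) and 22.7% in Bone_2 (18.9 to 27.0%, 410 calls), or 35.7% ± 18.4 (SD, n = 2). The Bone_2 level was below the 34.1% that the genome-wide ratio gives (exact test, adjusted p = 2.99e-04). The 28 sites from -1000 to -400 bp, upstream of the start, had levels of 4.32% and 11.8%. The 15 sites from there to 500 bp past the start had levels of 67.2% and 46.2%. In Bone_1 the methylated stretch held 26.0 calls per site and the unmethylated one 5.79, against 8.67 and 10 in Bone_2, so the pooled level of Bone_1 was weighted to the methylated stretch. The unweighted means over sites with at least 5 calls were 25.5% and 24.4%, without the gap seen in the pooled levels.

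The other end of SP7 was under 20% in both samples. Its 109 CpG sites had levels of 2.04% in Bone_1 and 10.2% in Bone_2. The window 7 to 8 kb from the start, which holds the gene end, had 4.03% (447 calls) and 22.2% (185 calls). The window 8 to 9 kb from it, beyond the gene and with 106 sites, had 0.585% (854 calls) and 0.687% (291 calls). AAAS, the nearest other protein-coding gene on that side, lay 6203 bp beyond SP7. Levels were higher away from this block. The window 5 to 6 kb from the start was at 82.2% and 72.1%, and the window 9 to 10 kb from it was at 53.5% and 39.2%.

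**Figure D2:**
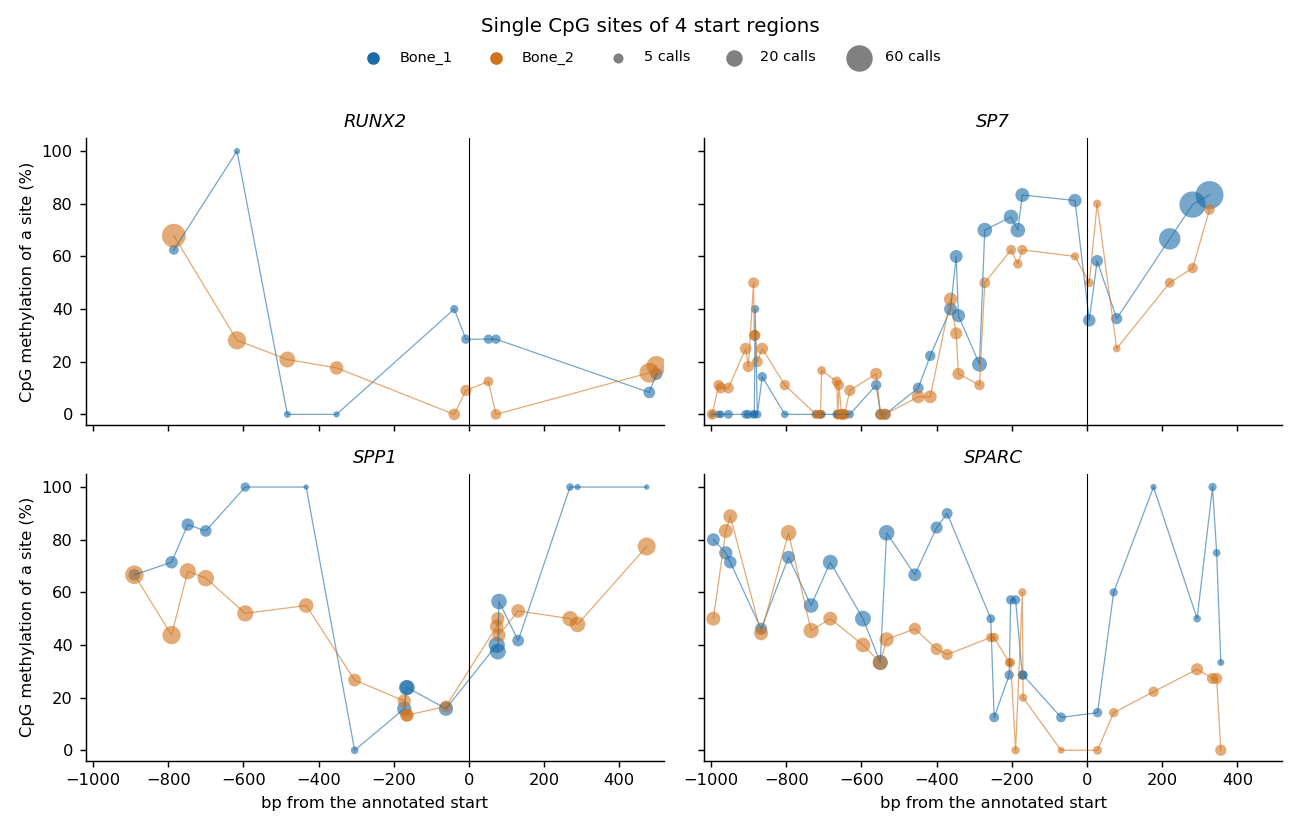
CpG methylation (%) of single CpG sites against distance from the annotated start (bp; negative is upstream) for RUNX2, SP7, SPP1 and SPARC, in Bone_1 (blue) and Bone_2 (orange). The area of a point grows with the number of calls. In SP7 the sites from -1000 to -400 bp lie low (4.32% and 11.8% in all) and those nearer and past the start lie higher (67.2% and 46.2%), while SPP1 is lowest just upstream of the start.

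DLX5 and DLX6 had the lowest start regions of the 9 genes in both samples. The DLX5 start, with 69 sites on chromosome 4 (14407892 to 14409379), was at 2.83% in Bone_1 (2.17 to 3.68%, 1873 calls) and 7.85% in Bone_2 (5.95 to 10.3%, 599 calls). The DLX6 start, with 61 sites (14388434 to 14389734), was at 2.87% in Bone_1 (1.72 to 4.77%, 487 calls) and 4.40% in Bone_2 (2.98 to 6.47%, 545 calls). Both were relatively higher in Bone_2 by the exact test, with adjusted p = 1.68e-13 for DLX5 and 5.36e-03 for DLX6. Gene ends with 60 or more CpG sites, their class, also had a higher median in Bone_2 (7.78%) than in Bone_1 (4.25%). The direction is therefore not particular to these genes. In the exact test against an odds ratio of 1 the call was lost for DLX6 (adjusted p = 0.296) and held for DLX5 (adjusted p = 1.68e-06). In the unweighted mean over sites with at least 5 calls in the given sample, DLX5 was at 3.04% and 3.996%, a smaller gap than in the pooled levels. This floor left out the Bone_2 sites from -79 to -54 bp, which had 25 to 50% at 4 calls each. The effect of the weighting alone was therefore not measured. For DLX6 the order of the samples also depended on the sites taken. Over sites read at least 5 times in both samples DLX6 was at 2.91% and 1.75%, with Bone_1 the higher, and the exact test at the genome-wide ratio called no difference (adjusted p = 0.879). With 500 bp on either side it was at 2.75% and 1.85%.

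Most sites of these regions had no methylated call at all. At DLX5, 43 of 69 sites were read in both samples and had none in either, over 1180 and 300 calls, which allows levels of up to 0.254% and 1.00% there. At DLX6 this held for 35 of 61 sites, over 318 and 245 calls, which allows up to 0.943% and 1.22%. The other DLX5 sites were at 7.65% and 15.7%. The other DLX6 sites, which include 4 without any call in Bone_1, were at 8.28% and 8%.

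The low methylation of these genes was not limited to their starts. The whole body was at 5.76% and 7.61% for DLX5 (4.28 kb) and at 11.5% and 16.2% for DLX6 (5.48 kb), and their other ends were at 17.2% and 17.7% and at 18.1% and 13.4%. The genes point towards each other, with starts 19.1 kb apart, and the 781 CpG sites between the starts had levels of 9.65% (12878 calls) and 13.1% (6091 calls). Of 56 windows of 1 kb with enough calls from 20 kb before the DLX6 start to 40 kb past it, 26 were under 30% in both samples and 20 were under 20% in both. Of all windows around gene ends, not matched for CpG number, 8.63% and 6.85% were.

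The low stretch was interrupted. Within DLX6, the window 3 to 4 kb past the start was at 75.4% in Bone_1 and 40.9% in Bone_2, with 9 CpG sites. Beyond the DLX5 start, the window 20 to 21 kb from the DLX6 start was at 73.2% and 45.9%, and the one after it at 35.5% and 38.8%. The window 22 to 23 kb from it was low again, at 18.5% and 16.9%, and the next one was at 86.3% and 69.1%. From there to 40 kb all windows had 73.2 to 88.6% in Bone_1 and 50.6 to 82.4% in Bone_2. On the other side, the window 15 to 16 kb before the DLX6 start was at 6.52% and 2.41%, so low windows also lay upstream of DLX6, where the long noncoding RNA gene LOC101906304 lies 489 bp from it.

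**Figure D3:**
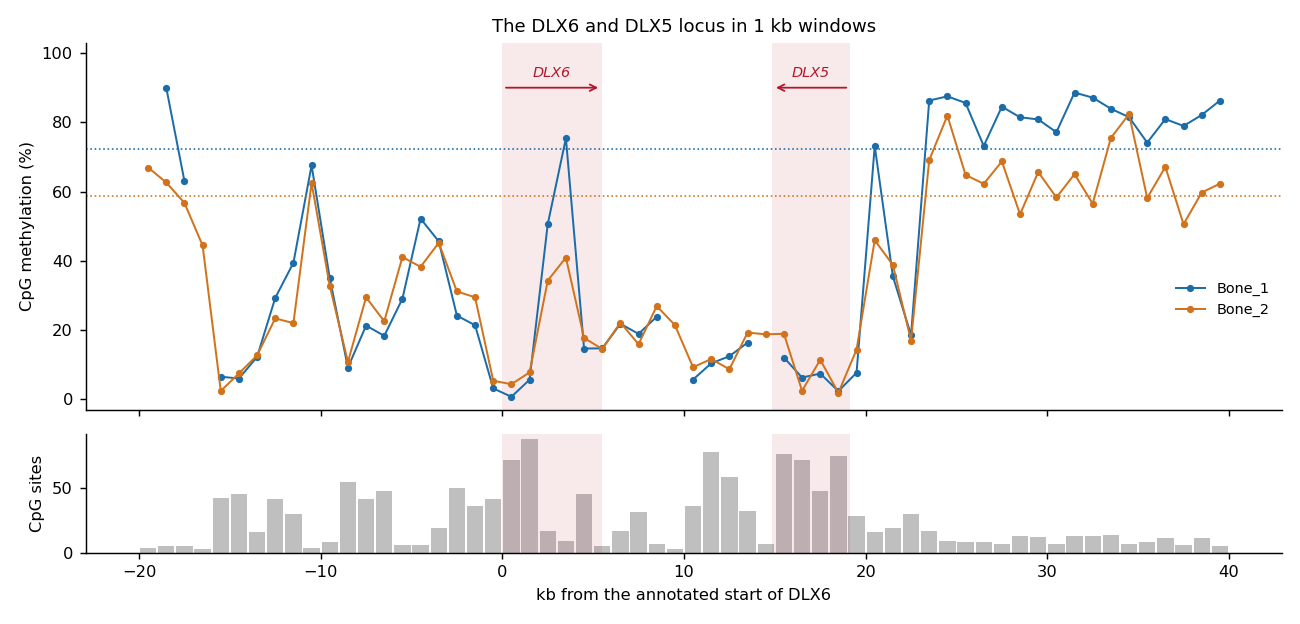
Top, CpG methylation (%) in 1 kb windows against distance from the annotated start of DLX6 (kb), in Bone_1 (blue) and Bone_2 (orange), with dotted genome-wide levels, genes shaded and arrows from start to other end. Bottom, CpG sites per window. Windows with under 20 calls in a sample are not drawn for that sample. The windows stay low between the 2 genes and return above 50% in both samples from 23 kb on.

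ALPL had a methylated start region. Its 38 sites on chromosome 2 (131268359 to 131269662) were at 71.1% in Bone_1 (66.0 to 75.6%, 342 calls) and 54.2% in Bone_2 (49.01 to 59.3%, 358 calls), or 62.6% ± 11.9 (SD, n = 2). This gap was close to the genome-wide one (expected 57.2% in Bone_2; exact test, adjusted p = 0.588). Levels within 1 kb of the start, 73.0% and 54.3%, and 5 to 10 kb away, 77.8% and 59.8%, differed by 4.83 and 5.57 points, and no window within 10 kb was under 30% in both samples.

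Single sites of the ALPL start were discordant with their neighbours in the same way in both samples. Whether the samples carry a CpG at each of these reference sites was not checked, because no sequence was used. The bounds given here assume that they do. At 5 of the 38 sites no call was methylated in either sample, over 54 calls in Bone_1 and 51 in Bone_2, which allows levels of up to 5.56% and 5.88%. The other sites were at 84.4% and 63.2%. For example, the site at -274 bp had 0 of 14 and 0 of 13 methylated calls, while the site at -259 bp had 9 of 14 and 7 of 12.

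An unmethylated block lay inside ALPL. From 23 to 25 kb past the start, 161 CpG sites were at 9.39% (3015 calls) in Bone_1 and 13.3% (847 calls) in Bone_2. The body before this block was at 85.3% and 61.5%, and the body after it at 74.8% and 55.7%. Its 2 windows were the only ones of 87 body windows under 20% in both samples. ALPL is known to have alternative first exons, and whether the block holds one was not tested. Over the whole 87.3 kb body the levels were 71.2% and 55.3%.

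RUNX2 likewise carried low blocks within its body. In the first, 46 to 49 kb past the start, 122 sites were at 4.69% (1747 calls) and 8.99% (1435 calls). In the second, 91 to 98 kb past the start on chromosome 23 (18684994 to 18691408), 426 sites were at 0.864% (9836 calls) and 4.12% (2721 calls). The second block was thus lower in both samples than the annotated start region itself. The first lies within SUPT3H, a neighbouring gene that overlaps RUNX2 and contains its annotated start. The nearer boundary of SUPT3H lies 51283 bp from that start. The strand of SUPT3H was not inferred, so whether this boundary is its start or its 3′ end is not given here. RUNX2 is known to be transcribed from a distal and a proximal promoter, and whether the second block is the proximal one was not tested.

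Around these blocks the RUNX2 body was methylated. From 100 to 351 kb past the start, 3148 sites were at 83.4% in Bone_1 and 62.3% in Bone_2. Of 318 windows of 1 kb with enough calls in the body, 10 were under 20% in both samples, and 8 of these 10 lay in the 2 blocks. The other 2 windows began 109 and 118 kb from the start, with 12.3% and 16.5% in the first and 18.7% and 12.4% in the second. Over the 352 kb body the level was 70.2% in Bone_1 and 59.6% in Bone_2.

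**Figure D4:**
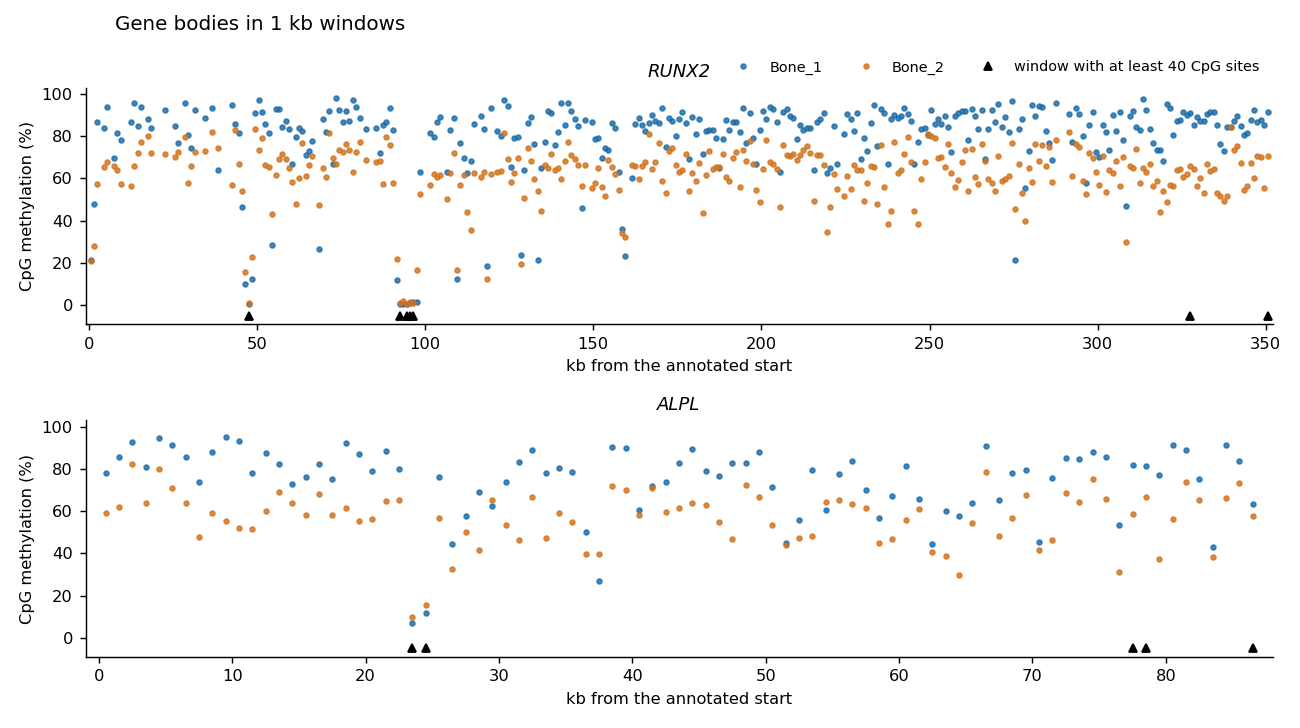
CpG methylation (%) of 1 kb windows along the bodies of RUNX2 (top) and ALPL (bottom) against distance from the annotated start (kb), in Bone_1 (blue) and Bone_2 (orange). Triangles mark windows with at least 40 CpG sites, and windows with under 20 calls in either sample are left out. The windows 46 to 49 kb and 91 to 98 kb into RUNX2 and 23 to 25 kb into ALPL stand below most other windows of each body.

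BGLAP, the osteocalcin gene, had the highest start methylation in Bone_1 among the 8 starts with enough calls. Its 49 sites on chromosome 3 (14551775 to 14553229) were at 87.3% in Bone_1 (84.2 to 89.8%, 543 calls) and 56.5% in Bone_2 (51.2 to 61.7%, 338 calls), or 71.9% ± 21.8 (SD, n = 2). The gap of 30.8 points was wider than the genome-wide ratio gives, which would put Bone_2 at 78.9% (exact test, adjusted p = 1.26e-09). No site of the region was without a methylated call in both samples. Of the 38 sites read at least 5 times in both samples, 30 were over 80% in Bone_1 and 1 was in Bone_2.

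BGLAP spans only 1.04 kb, and its body of 30 sites, which partly overlaps the start region, was at 83.7% and 55.0%. The lowest window within 10 kb lay 3 to 4 kb past the start, beyond the gene, with 64 sites at 28.0% (1127 calls) and 31.7% (458 calls). That window falls within PAQR6, which lies 115 bp from BGLAP, and PMF1 lies 1579 bp from it on the other side. Of the 20 windows, 11 were called by the exact test, 7 of them relatively higher in Bone_1 and 4 in Bone_2. Over all windows around gene ends, not matched for CpG number, 29.6% were called, with 20.9% relatively higher in Bone_1 and 8.66% in Bone_2.

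IBSP could be read at its start in Bone_2 only. Its 6 sites on chromosome 6 (36893961 to 36894792) had 7 methylated of 9 calls in Bone_1 (77.8%, 45.3 to 93.7%) and 57.3% in Bone_2 (50.7 to 63.6%, 220 calls). With 3 of the 6 sites lacking any call in Bone_1, the start was not tested. The site nearest the start, at -87 bp, was lower than its neighbours in Bone_2, with 11 of 37 calls methylated. The body, with 82 sites, was at 81.7% (771 calls) and 60.9% (1913 calls), and no window within 10 kb was under 30% in both samples. A long noncoding RNA gene, LOC112447053, contains the IBSP start.

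SPP1, the osteopontin gene, had its least methylated sites just upstream of its start. Over the whole region, 18 sites on chromosome 6 (36699735 to 36701098) were at 46.0% in Bone_1 (39.7 to 52.3%, 235 calls) and 49.2% in Bone_2 (44.2 to 54.2%, 376 calls), or 47.6% ± 2.29 (SD, n = 2). The intervals overlapped, and the genome-wide ratio would put Bone_2 at 31.7%, so the region was relatively higher in Bone_2 (exact test, adjusted p = 4.92e-05). In the exact test against an odds ratio of 1 this call was lost (adjusted p = 0.513). The order of the samples also turned on the plus strand alone, with 79.6% in Bone_1 and 49.2% in Bone_2. On the minus strand the levels were 35.9% and 49.2%. The 235 calls of Bone_1 are for both strands together, and whether the same sites were read on each strand was not checked. It turned as well in the unweighted mean, with 50.9% and 44.9%, taken over sites with at least 5 calls in the given sample and so over unlike sites.

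From 1000 to 500 bp upstream, 5 SPP1 sites were at 79.7% and 58.9%. The 9 sites from -400 bp to 200 bp past the start were at 31.5% (168 calls) and 32.4% (139 calls). The 4 sites between -172 and -61 bp were at 13.3 to 23.8% in both samples. Those between 74 and 131 bp past the start were at 37.5 to 56.5%. With the region narrowed to 250 bp upstream and 50 bp downstream, SPP1 was at 20% and 15.5%. The windows 5 to 10 kb away were at 87.3% and 62.4%, which is 41.3 and 12.8 points above the windows next to the start. Over its 7.005 kb, the SPP1 body was at 84.3% and 63.0%, at percentile 92.3 of all bodies in Bone_1 and 68.8 in Bone_2.

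SPARC, the osteonectin gene, was intermediate over a broad stretch. Its 28 start sites on chromosome 7 (62896878 to 62898228) were at 58.96% in Bone_1 (53.4 to 64.3%, 307 calls) and 43.9% in Bone_2 (38.7 to 49.2%, 344 calls), or 51.4% ± 10.7 (SD, n = 2). This gap matched the genome-wide one (expected 43.9%; exact test, adjusted p = 1.00). From 1000 to 300 bp upstream the levels were 65.9% and 53.4%. From 300 bp upstream to 100 bp past the start they were 33.3% (69 calls) and 26.3% (57 calls). From 100 to 500 bp past the start they were 72.2% in Bone_1 (18 calls) and 21.8% in Bone_2 (55 calls), so the level was higher again in Bone_1 only. Among gene ends with 20 to 39 CpG sites, the SPARC start stood at percentile 16.8 in Bone_1 and 16.1 in Bone_2.

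Past the start, SPARC stayed under 50% in Bone_2. In all 10 windows downstream its level was 33.3 to 77.3% in Bone_1 and 19.8 to 49.6% in Bone_2. The 22.8 kb body was at 70.0% (5170 calls) and 45.9% (3825 calls), at percentile 44.2 of all bodies in Bone_1 and 16.7 in Bone_2. At the genome-wide ratio Bone_2 would have been at 56.0% (exact test, adjusted p = 1.22e-19).

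**Figure D5:**
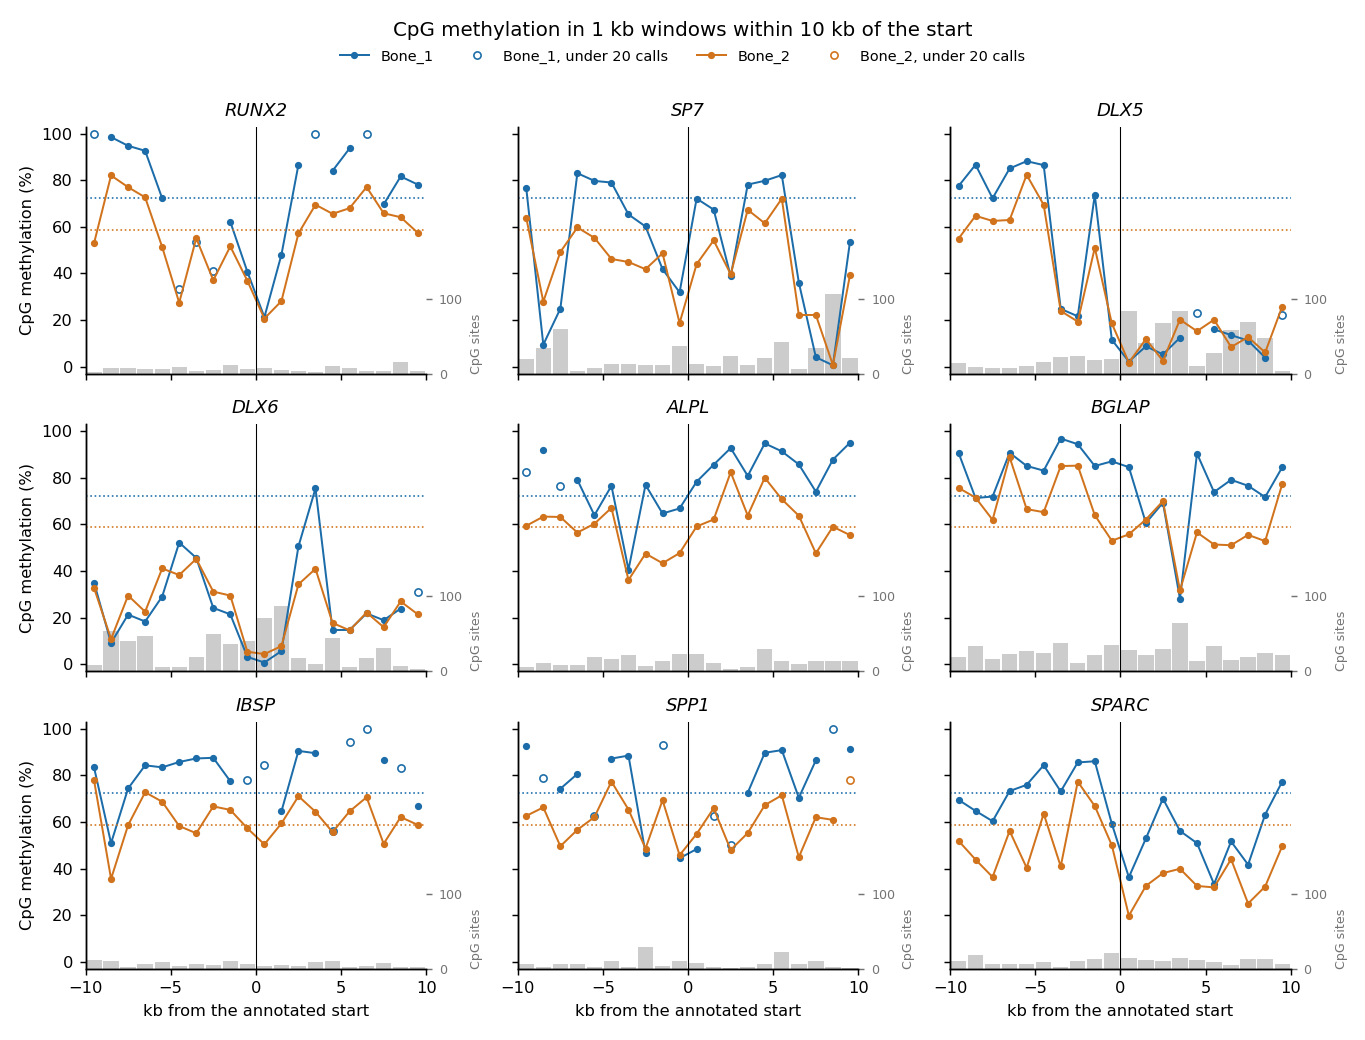
CpG methylation (%) in 1 kb windows within 10 kb of the annotated start of each gene (kb; negative is upstream), in Bone_1 (blue) and Bone_2 (orange). Open points have under 20 calls, dotted lines are the genome-wide levels, and grey bars are CpG sites per window (right axis). DLX5 and DLX6 are low over many windows. RUNX2 and SPP1 lie lower within 1 kb of the start than 5 to 10 kb away, by 57.4 and 41.3 points in Bone_1 and by 41.2 and 12.8 in Bone_2.

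Over the 180 windows within 10 kb of the 9 starts, 156 had enough calls, and 53 of them were called, 21 relatively higher in Bone_1 and 32 in Bone_2. Over all windows around gene ends 29.6% were called, 20.9% relatively higher in Bone_1 and 8.66% in Bone_2. The shares over all windows in this paragraph were not matched for CpG number. Gene ends with 60 or more CpG sites had medians of 4.25% in Bone_1 and 7.78% in Bone_2. Of the 32, 12 lay at DLX6, 7 at DLX5, 4 each at SP7 and BGLAP, 3 at SPP1 and 2 at ALPL. Against an odds ratio of 1, 99 windows were called, 90 of them higher in Bone_1. Beside RUNX2 and SPP1, the level within 1 kb of the start was below that 5 to 10 kb away in both samples by 17.0 and 24.2 points for DLX5, 16.9 and 16.0 for DLX6, 10.2 and 3.67 for SPARC and 4.83 and 5.57 for ALPL. For SP7, BGLAP and IBSP it was below in Bone_2, by 18.1, 11.8 and 7.34 points, and above in Bone_1. Over all gene ends the median of this difference was 4.75 points in Bone_1 and 4.95 in Bone_2, with upper quartiles of 57.5 and 41.1. The ALPL values are thus near the median, and that of SPARC in Bone_2 is below it. Of the 156 windows, 15 were under 20% in both samples, 7 each at DLX5 and DLX6 and 1 at SP7, beside 6.85% of all windows.

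The bodies of the 9 genes had median levels of 71.0% and 55.0%, beside 72.1% and 58.8% over 21007 gene bodies. By the exact test 8 of the 9 bodies were called, against 79.6% of all bodies. ALPL, BGLAP, IBSP, SPP1 and SPARC were relatively higher in Bone_1, a direction called at 36.2% of bodies. RUNX2, DLX5 and DLX6 were relatively higher in Bone_2, called at 43.5%. SP7, at 71.0% and 54.9%, was the body that did not pass (exact test, adjusted p = 0.197). Against an odds ratio of 1 all 9 bodies were called, 7 of them higher in Bone_1, RUNX2 and SP7 included, and 2 in Bone_2.

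Depth differed between the samples with CpG density. At the 10 sites of RUNX2 and the 6 of IBSP, Bone_1 had 6.60 and 1.5 calls per site and Bone_2 had 24.6 and 36.7. At the 69 sites of DLX5 this was turned around, with 27.1 in Bone_1 and 8.68 in Bone_2. Over all gene ends the median fell in Bone_2 from 18.5 calls per site at ends with under 20 CpG sites to 6.65 at those with 60 or more, and it was 11.6 and 18.9 in Bone_1. Its part in the differences between the samples was not tested.

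Other genes known from osteoblasts were read at both ends, since their strand was not inferred. At least 1 end under 20% in both samples was found in 17 of 25 (68.0%), against 51.6% of all genes and 3 of the 9 members (SP7, DLX5 and DLX6). Those with the lowest mean level were ATF4, a transcription factor gene (0.197% and 0.267%), ANKH, a gene of pyrophosphate transport (0.952% and 1.76%), BMP2, a bone morphogenetic protein gene (2.08% and 1.37%), and FGFR2, a growth factor receptor gene (1.90% and 2.11%). Of the matrix protein genes in the list, grouped after their values were seen, COL1A1 (12.7% and 17.3%) and COL1A2 (11.6% and 5.49%) were among the 17. MGP, OMD, MEPE, DMP1 and POSTN were not, with lower ends at 61.0 to 89.4% in Bone_1 and 37.0 to 78.0% in Bone_2. These lower ends held 7 to 20 CpG sites, whereas those of COL1A1 and COL1A2 held 52 and 71. ATF4, ANKH, BMP2 and FGFR2 had 114 to 180 sites at theirs. The share of ends under 20% in both samples rose from 0.392% with under 20 sites to 75.5% with 60 or more. No comparison matched for CpG number was made, so neither this split nor the 68.0% beside 51.6% was tested apart from it. The exact test called 20 of the 48 ends of the list (41.7%), 6 relatively higher in Bone_1 and 14 in Bone_2. This is near the 48.7% of all gene ends, with 20.9% and 27.9% by direction, and is no result about the list.

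Genes that mark other cells were read in the same way, without matching for CpG number. Among all genes, 51.6% had at least 1 end under 20% in both samples. Single ends were that low in 0.392% with under 20 CpG sites, 2.99% with 20 to 39 and 75.5% with 60 or more. The lower ends of the fat cell genes held 3 to 37 sites and those of the liver genes 8 to 24. Whether the counts below differ from those of genes with similar CpG number was not tested. An end under 20% in both samples was found in 3 of 10 white blood cell genes (CD3E, LCP1 and CORO1A), 1 of 7 genes of the red blood cell lineage (TAL1), 3 of 6 osteoclast genes (ACP5, OSCAR and CALCR), 4 of 7 cartilage genes (SOX9, ACAN, COL2A1 and COMP), 3 of 7 muscle genes (MYOD1, DES and ACTA1), and in none of 6 fat cell genes or 7 liver genes. The lower ends of the white blood cell genes ranged from 5 to 61.4% in Bone_1 and from 6.54 to 58.8% in Bone_2. Those of the liver genes ranged from 55.2 to 93.3% and from 40.9 to 73.2%. Those of the fat cell genes ranged from 10.7 to 81.8% and from 20.7 to 63.6%. The lowest of these was at LPL, which was over 20% in Bone_2 only and by little. RNA of these samples was not analysed here, so the cell types in these samples could not be checked by expression, and their part in the levels of the 9 genes was not tested.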

How the data were processed

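WGBS was analysed in 2 bone samples of 1 group. Per the labels, reads were checked with FastQC 0.11.5, trimmed with Trim Galore 0.4.5 and mapped with Bismark 0.19.0 and Bowtie2 to ARS-UCD1.2, whereas the study's methods name other versions of FastQC, Trim Galore and Bismark and the UMD3.1.1 build. The authors removed duplicates and deposited unnormalized counts of methylated and unmethylated calls per CpG cytosine, 582241763 in Bone_1 and 440334436 in Bone_2. Genes came from RefSeq's ARS-UCD2.0 table, and all 9 matched by symbol. The fit was checked by CpG density, which peaked 0 to 100 bp inside gene ends (4.33 sites per 100 bp, 1.51 at 4 to 5 kb), and among the 50 genes nearest each member within 300 bp. Gene ends of all genes, with strand unknown, took the place of promoters. Regions needed 20 calls per sample and calls an adjusted p under 0.05. Intervals are 95% Wilson intervals, and a count of 0 allows 3 calls of the total. Members and lists were chosen with earlier results of these data known, and stretches within regions after their values were seen. Named are all 9 members, their neighbours and up to 4 genes of each other list with an end under 20%, those with the lowest mean. The genes of the other matrix proteins were added after their values were seen. In simulated data of 20000 gene ends with 200 changed, 70.5%, 89.5% and 100% of those changed by 20, 30 and 50 percentage points were recovered, with 4, 7 and 13 unchanged ends called. The simulated calls were independent, and unchanged ends followed the genome-wide ratio. The simulation therefore gives no rate of false calls for the real data, where 48.7% of gene ends were called. Only ends with intermediate expected levels were changed, so starts as low as those of DLX5 and DLX6 were not covered. No sequence was used here, so no motif was searched. Alternatives changed region limits, sites, strands, weighting, depth and the odds ratio tested. Tests and figures used scipy 1.17.1 and matplotlib 3.10.9 under Python 3.11.15, and tables pandas 2.3.3, numba 0.67.0 and numpy 2.4.6.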

Additional observations from a re-analysis of the deposited data

How the results depend on the processing

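The level of a start depended on where the region ended. The median of the 9 starts was 46.3% as the mean of both samples. It was 41.3% with 500 bp on either side and 29.5% with 250 bp upstream and 50 bp downstream. As an unweighted mean over sites with at least 5 calls it was 39.5%, and with the plus strand alone it was 49.9%. In both of these alternatives IBSP had no value in Bone_1 and was counted in the Bone_2 median only. With the narrowest region the means were 65.3% for SP7, 17.8% for SPP1 and 27.4% for SPARC, and with 2000 bp upstream they were 14.9% for DLX5 and 12.1% for DLX6. The count of starts under 20% in both samples was 3 in place of 2 with 500 bp on either side, RUNX2 being added. Without 1 sample the median start level was 43.9 to 48.7%, the count under 20% was 2, and the median body level was 55.0 to 71.0%. Of all gene ends, 20003 were called, against 28711 at an odds ratio of 1, 30740 at the odds ratio of the summed calls of all gene ends (0.818) and 10261 with a difference of at least 10 percentage points in addition. The share relatively higher in Bone_1 was 42.8%, 78.2%, 84.0% and 82.8%. Of the member starts, 2 (SP7 and BGLAP) were called with the added 10 points, and of the member windows 99 were called at an odds ratio of 1 in place of 53. The difference in log odds from the ratio tested turned from -0.0021 to 0.61 and 0.81 for SPARC at these other ratios and from -0.74 to 0.071 for SPP1 at the ratio of gene ends, where RUNX2 turned from -0.65 to 0.15 without a call at either. These shifts follow from the ratio itself. Of the alternative values of single genes, 87 kept their direction and side of the threshold or, for levels, stayed within 1 SD, 24 levels moved farther, 7 calls were lost and 2 were gained. Of the 4 values that turned, SPARC gained a call at both ratios and SPP1 lost its call. No paired analysis was possible because both samples belong to 1 group. Depth limited IBSP, which had 9 calls in Bone_1, and RUNX2, which had 66.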

Other observations

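The RUNX2 start was lower on the plus strand in both samples, with 13.0% against 34.9% in Bone_1 and 22.2% against 38.7% in Bone_2. Calls were pooled over the 10 sites, with 66 in Bone_1 for both strands together. Whether the same sites were read on each strand was not checked, and the gap was not tested.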
